A study of Mus musculus with 6 samples.

Results

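The rows of the mouse aorta count table that belong to the mitochondrial genome were described here, together with the rows of its nuclear copies. They are every row whose symbol starts with mt-, and the 7 rows RP23-8J15.1 to RP23-8J15.7, which carry the name of a genomic clone from chromosome 1. The members were taken by symbol and number 44 of 53735 rows: 13 protein, 2 rRNA and 22 tRNA rows of the mitochondrial genome, and the 7 clone-named rows. The study compared mice without the long noncoding RNA gene Mymsl (KO, 3 libraries) with wild-type mice (WT, 3 libraries). Per the labels' protocols, the RNA source was purified smooth muscle of the aortic media, and libraries were made with a stranded mRNA kit that selects RNA with poly(A) tails. The sources used here do not give strain, age, sex or the nature of the Mymsl allele. The labels do not say that each library is a separate mouse, so a p-value here reflects only how much the libraries vary, which may be technical. No row was named Mymsl, so the deletion itself could not be checked in the table.

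The mitochondrial genome is a small circle of DNA that encodes core subunits of the respiratory chain and of ATP synthase, the rRNAs of the mitochondrial ribosome and a set of tRNAs. Both strands are transcribed as long precursors, from which tRNAs are cut out so that the mRNAs and rRNAs between them are released. Most of the mRNAs and the rRNAs then receive poly(A) tails, and in several mRNAs the tail itself completes the stop codon. Pieces of mitochondrial DNA have also been inserted into nuclear chromosomes, where they remain as copies that are not known to make respiratory chain proteins. Vascular smooth muscle holds fewer mitochondria than heart muscle or brown fat, so markers of those tissues are given beside the results.

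Total counts ran from 20048216 to 23243129 in the KO libraries and from 23506674 to 25521123 in the WT libraries, so that every KO library was shallower than every WT library (exact two-sided permutation p = 0.1, the smallest that 3 against 3 libraries allow). The smooth muscle marker Acta2 lay between 16823 and 23809.5 CPM in KO and between 20906 and 22879 CPM in WT, where CPM is the read count scaled to the library's size after normalization by trimmed mean of M values (TMM). The labelled cell type was thus present in all 6 libraries by this marker.

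The annotation of the mouse genome (GENCODE M21, build GRCm38) places 7 unprocessed pseudogenes next to each other on the minus strand of chromosome 1, at chr1:24611535-24616197. They are Gm28439, Gm10222, Gm28438, Gm28437, Gm10925, Gm28661 and Gm29216. Their sequences matched the stretch chrM:6390-11042 of the mitochondrial genome, 4653 bases that run from within mt-Co1 to within mt-Nd4. The annotated copies cover 4133 of these bases (88.8%), and the bases between them were not compared. Along all 7 copies the order and spacing of the mitochondrial genome were kept to within 1 base. Over 4192 overlapping bases the copies and the mitochondrial genes differed at 7 positions.

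Of these 7 differences, 6 lie at or just before the start of the stretch, in mt-Co1, which encodes a catalytic core subunit of cytochrome c oxidase (complex IV). Counted from the 5′ end of mt-Co1, with the mitochondrial base first, they are T1056A, C1057T, A1059G, A1060G, C1062A and A1066T. Only A1066T lies inside the stretch, and the others lie in the annotated bases of Gm29216 just before it. Both sequences are shown 5′ to 3′ with the differing bases in capitals, to show how abruptly the copy becomes identical. The mitochondrial bases are chrM:6381-6440 on the plus strand, and those of Gm29216 are chr1:24616138-24616197 on the minus strand.
mt-Co1: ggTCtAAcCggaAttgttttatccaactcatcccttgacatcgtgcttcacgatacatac
Gm29216: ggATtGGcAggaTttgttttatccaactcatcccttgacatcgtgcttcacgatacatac

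The remaining difference is T3C in mt-Nd3, which encodes a membrane subunit of complex I. It is the only base by which the annotated copy Gm28438 could be told from mt-Nd3 over their 345 shared bases. The mitochondrial bases shown are chrM:9459-9518 on the plus strand and those of the copy are chr1:24613060-24613119 on the minus strand, with the differing base in capitals.
mt-Nd3: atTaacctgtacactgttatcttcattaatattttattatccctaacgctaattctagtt
Gm28438: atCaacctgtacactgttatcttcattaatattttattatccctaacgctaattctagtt

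The other genes of the stretch did not differ from their annotated copies at any shared base. mt-Nd4l, a further membrane subunit of complex I at chrM:9877-10173 on the plus strand, shows this over a whole gene: Gm10222 (chr1:24612407-24612700, minus strand) holds the same 294 bases and ends before the stop codon. The sequence of mt-Nd4l is printed without capitals because no shared base differs.
mt-Nd4l: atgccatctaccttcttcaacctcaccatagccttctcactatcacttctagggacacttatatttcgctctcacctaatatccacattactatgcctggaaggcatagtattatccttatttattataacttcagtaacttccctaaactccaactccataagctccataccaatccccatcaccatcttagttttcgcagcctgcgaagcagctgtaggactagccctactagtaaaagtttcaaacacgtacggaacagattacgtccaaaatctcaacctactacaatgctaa

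How far each gene can be told from other annotated transcripts was measured by sliding windows. Of all windows of 100 bases, 99.5% were found in another annotated transcript for mt-Co2 and mt-Atp6, 99.9% for mt-Co3, 97.6% for mt-Nd3 and 98.5% for mt-Nd4l. The share was 60.8% for mt-Nd4 and 30.8% for mt-Co1, the genes at the ends of the stretch. It was 3.19% for mt-Nd2, which shares bases with Gm13339 on chromosome 2. No window of this length was shared by mt-Nd1, mt-Nd5, mt-Nd6, mt-Cytb, mt-Rnr1 or mt-Rnr2. mt-Atp8 shared none either, because most of it falls between annotated copies. The sources used here give neither the read length nor how reads that fit several places were counted.

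The counts of the protein rows followed the borders of this stretch. The 11 rows wholly inside it held 31 counts over all 6 libraries, out of 14381434 counts of mitochondrial rows. The 2 rows partly inside, mt-Co1 and mt-Nd4, held 5881205 counts (40.9%), and the 24 rows outside held 8500198 counts (59.1%). Of the 6 protein rows inside, mt-Co2 had 3 counts in total, mt-Co3 19 and mt-Nd3 9, while mt-Atp8, mt-Atp6 and mt-Nd4l had 0. The 5 tRNA rows inside, mt-Ts1, mt-Td, mt-Tk, mt-Tg and mt-Tr, had 0. So had 4 of the 17 tRNA rows outside, so the tRNA rows do not mark the border. The 5 protein rows outside held 8210210 counts. A count of 0 over all 6 libraries allows up to 0.0219 CPM, which covers counting error only. Levels of the mRNAs for Co2, Co3, Atp6, Atp8, Nd3 and Nd4l were thus not measurable from these rows. The part of the reads' mapping in this pattern was not tested.

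**Figure D1:**
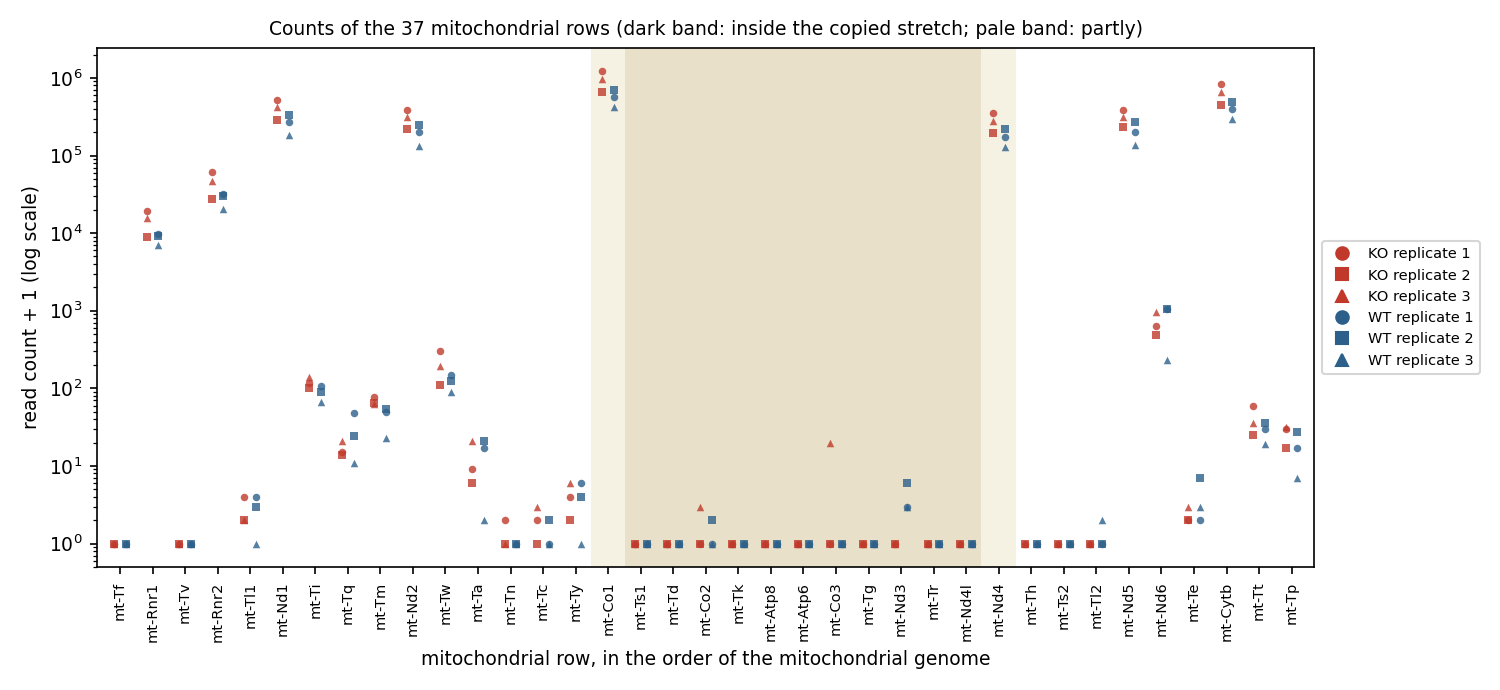
Read count plus 1 (log scale) of the 37 mitochondrial rows in the order of the mitochondrial genome, with KO libraries in red, WT libraries in blue and a symbol for each replicate. The dark band marks the 11 rows wholly inside the stretch copied on chromosome 1 and the pale bands mt-Co1 and mt-Nd4, which are partly inside. Rows inside the dark band have at most 19 counts in a library, and the protein rows on either side reach up to 1215328.

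mt-Co3, which encodes a further core subunit of complex IV, had 0, 0 and 19 counts in KO replicates 1, 2 and 3 and 0 counts in each WT library. All of its counts thus came from KO replicate 3. mt-Nd3 had 0 counts in each KO library and 2, 5 and 2 counts in WT replicates 1, 2 and 3. mt-Co2, the subunit of complex IV that takes electrons from cytochrome c, had 2 counts in KO replicate 3, 1 count in WT replicate 2 and 0 elsewhere. These rows were too low to be tested.

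Mitochondrial mRNAs that lie outside or partly outside the stretch held a large share of every library. Together the 37 rows took 18.9%, 10.003% and 12.98% of all counts in KO replicates 1, 2 and 3, against 7.84%, 9.02% and 5.66% in WT replicates 1, 2 and 3. Every KO library lay above every WT library, and KO replicate 1 stood highest. The mean was 14.0% ± 4.53 in KO and 7.51% ± 1.70 in WT (SD, n = 3 each), a difference of 6.46 percentage points (exact two-sided permutation p = 0.1, the smallest possible). The difference was 3.99 percentage points without KO replicate 1 and 3.06 when WT replicate 3, the lowest library, was left out as well. Beside it, the counts of all other rows were 16258721, 18792496 and 20226309 in KO replicates 1, 2 and 3, against 21803755, 23219623 and 22176265 in WT replicates 1, 2 and 3, again without overlap. A share cannot tell more mitochondrial RNA per cell from less RNA of other genes, nor either of them from a change in the make-up of the cells.

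Per-library levels of the mRNAs were high and ran in parallel. mt-Co1 had 62627, 31712 and 41456 CPM in KO replicates 1, 2 and 3, against 23272, 27971 and 17479.6 CPM in WT replicates 1, 2 and 3. mt-Cytb, the mitochondrially encoded subunit of complex III, measured 43532, 21674 and 28593 CPM in KO, against 16555, 19541 and 12321 CPM in WT. For both genes all 3 KO libraries lay above all 3 WT libraries, with KO replicate 1 highest and WT replicate 3 lowest.

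The abundant complex I mRNAs showed the same order of libraries. mt-Nd1 had 26881, 13861 and 18147 CPM in KO replicates 1, 2 and 3, against 11243, 13085 and 7505 CPM in WT replicates 1, 2 and 3. mt-Nd2 measured 19819, 10352 and 13479 CPM in KO, against 8429.6, 9891 and 5457 CPM in WT. Both of these membrane subunits thus kept KO replicate 2 just above WT replicate 2. mt-Nd4 measured 18161, 9355 and 12211 CPM in KO, against 7254, 8638 and 5405 CPM in WT. mt-Nd5 measured 20037, 10982 and 13748 CPM in KO, against 8369, 10617 and 5716 CPM in WT. Both of these proton-pumping subunits were likewise without overlap between the genotypes.

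The rRNAs were far lower than the 6 abundant mRNAs in these poly(A)-selected libraries. mt-Rnr1, the small rRNA of the mitochondrial ribosome, had 1007, 421 and 680.1 CPM in KO replicates 1, 2 and 3, against 408, 362 and 287 CPM in WT replicates 1, 2 and 3, without overlap. mt-Rnr2, the large rRNA, measured 3149, 1308 and 2006 CPM in KO, against 1318, 1199.9 and 852 CPM in WT. Here KO replicate 2 fell just below WT replicate 1, so the groups overlapped.

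In the test over all 14145 rows that passed the filter on low counts, 18 of the 44 members were tested and none was called. The test was edgeR's quasi-likelihood test with Benjamini-Hochberg adjustment over all tested rows and a threshold of 0.05, and it called 1 row in the whole table (0.00707%), which was no member. DESeq2 gave an adjusted p to 10 members, between 0.106 and 0.987, and called none of them, while it called 209 rows in the whole table (2.49% of those with an adjusted p). In edgeR, 12 of the 18 tested members had an unadjusted p under 0.05, as had 962 higher and 1098 lower rows of the 14145 tested. Every KO library was above every WT library in 9 of the 16 tested mitochondrial rows, against 10.5% of all tested rows. These counts cover rows that passed the filter and not all members, and mitochondrial rows are cut from shared precursors, so they are not independent of each other.

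Among the 6 abundant mRNAs and 2 rRNAs, the log2 fold change of KO over WT had a median of 0.92 and lay between 0.86 (mt-Nd5) and 0.995 (mt-Rnr1), where the median over all tested rows was 0.01. mt-Co1 gave a log2 fold change of 0.98 ± 0.29 (standard error, adjusted p = 0.273 in edgeR) and mt-Cytb one of 0.95 ± 0.29 (adjusted p = 0.275 in edgeR). The values were 0.89 ± 0.29 for mt-Nd1, 0.88 ± 0.29 for mt-Nd2, 0.90 ± 0.27 for mt-Nd4 and 0.86 ± 0.29 for mt-Nd5, each with an adjusted p between 0.275 and 0.279 in edgeR. The rRNAs gave 0.995 ± 0.29 for mt-Rnr1 and 0.94 ± 0.31 for mt-Rnr2, with adjusted p of 0.273 and 0.279 in edgeR. These 8 values differed from each other by less than any of their standard errors. Without KO replicate 1 they lay between 0.56 and 0.68, and without KO replicate 1 and WT replicate 3 between 0.38 and 0.52.

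**Figure D2:**
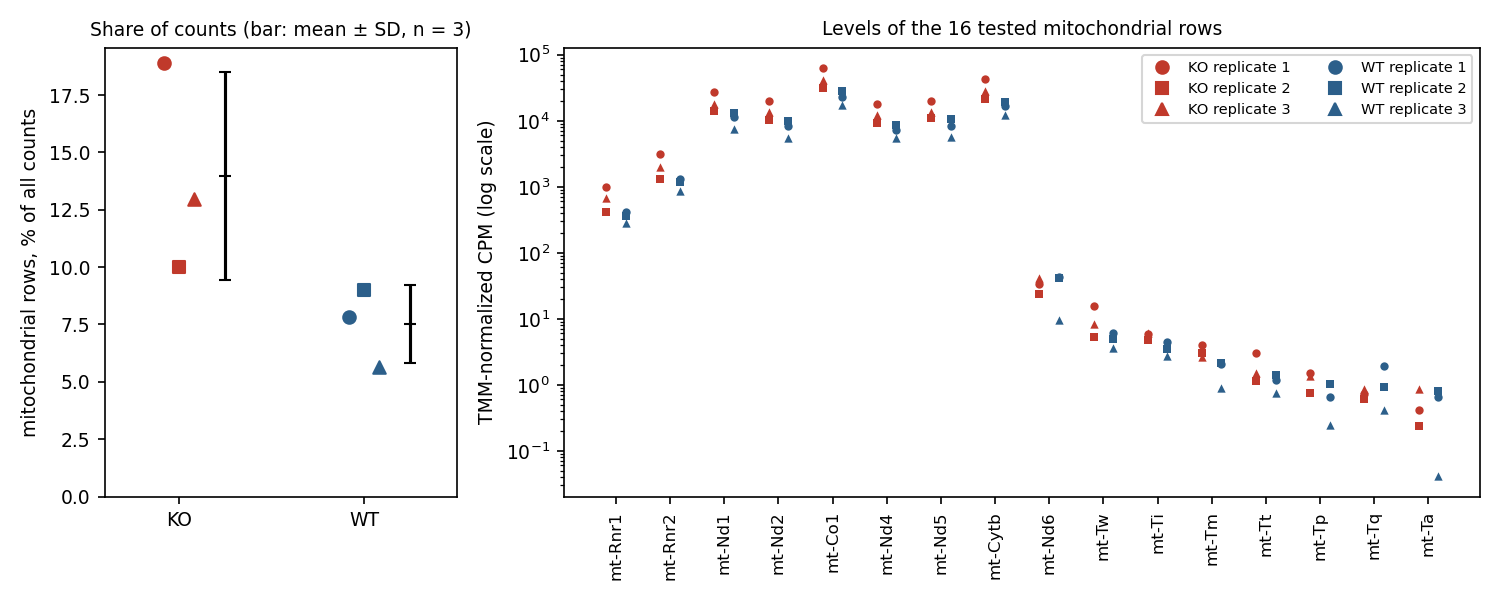
Left, the share of all counts held by the 37 mitochondrial rows, in percent, with each library as a point and the mean ± SD (n = 3) as a bar. Right, TMM-normalized CPM (log scale) of the 16 tested mitochondrial rows, KO in red and left of WT in blue. KO shares run from 10.003% to 18.9% and WT shares from 5.66% to 9.02%, while mt-Nd6 and the tRNA rows lie far below the other mRNAs.

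Levels differed among the genes themselves. In mean CPM per kilobase of gene, mt-Co1 was highest at 29298 in KO and 14827 in WT, followed by mt-Cytb at 27331 in KO and 14108 in WT. mt-Nd1 followed at 20511 in KO and 11088 in WT, mt-Nd2 at 14017 in KO and 7636 in WT, mt-Nd4 at 9609.9 in KO and 5151 in WT, and mt-Nd5 at 8181 in KO and 4514 in WT. The rRNAs came next, with mt-Rnr2 at 1362 in KO and 710.1 in WT and mt-Rnr1 at 736 in KO and 369 in WT, and mt-Nd6 was last at 63.1 in KO and 61.0 in WT. The order of these 9 genes was the same in both genotypes. Within libraries, mt-Nd1 exceeded mt-Nd2 per length by a ratio of 1.46 ± 0.00944 in KO and 1.46 ± 0.0299 in WT, and mt-Cytb exceeded mt-Nd5 by 3.31 ± 0.159 in KO and 3.18 ± 0.252 in WT (SD, n = 3 each), so these gaps were larger than the spread between libraries. mt-Co1 and mt-Nd4 lie partly in the copied stretch, and whether reads from that part were counted was not tested. Their levels were therefore also taken over the bases outside it, 1062 and 502 bases long. On that scale mt-Co1 reached 42623 CPM per kilobase in KO and 21569.9 in WT, and mt-Nd4 reached 26379 in KO and 14141 in WT. mt-Nd4 then had rank 3 in KO and rank 2 in WT, with mt-Cytb as its nearest neighbour, so its place in the order depends on which bases are taken as counted.

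Within each library, the make-up of the mitochondrial counts was close to constant. mt-Co1 took 32.1%, 31.8% and 31.8% of mitochondrial counts in KO replicates 1, 2 and 3, against 30.3%, 30.6% and 31.8% in WT replicates 1, 2 and 3. mt-Nd4 took 9.30%, 9.38% and 9.37% in KO, against 9.43%, 9.45% and 9.82% in WT. The KO libraries were the higher for mt-Co1 and the lower for mt-Nd4, without overlap, although the nearest libraries of both genotypes were close. Mean shares were 21.99% in KO and 21.8% in WT for mt-Cytb, 13.9% in KO and 14.2% in WT for mt-Nd1, 10.6% in KO and 10.96% in WT for mt-Nd5, and 10.3% in KO and 10.6% in WT for mt-Nd2.

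The log2 ratio of each row to the other mitochondrial rows was compared between genotypes for the 17 rows with at least 10 counts in a library. For the 8 abundant rows the difference of KO minus WT lay between -0.05 (mt-Nd5) and 0.07 (mt-Co1). Of the 17 rows 3, mt-Co1, mt-Nd4 (-0.04) and mt-Tq (-1.21), did not overlap between genotypes, each with an exact permutation p = 0.1, the smallest possible. After Benjamini-Hochberg adjustment of the permutation p over the 17 rows, the smallest was 0.567. The share of all rows without overlap in such a ratio was not computed, so nothing is concluded from these 3 rows. Without WT replicate 3 the difference was -0.02 for mt-Nd4, and without WT replicate 1 it was -0.70 for mt-Tq. The ratio of rRNA to protein counts was 21.7, 17.7 and 21.0 per 1000 in KO replicates 1, 2 and 3, against 22.98, 17.4 and 21.1 per 1000 in WT replicates 1, 2 and 3, and the groups overlapped. Per length, mt-Rnr2 exceeded mt-Rnr1 by a ratio of 1.85 ± 0.0590 in KO and 1.91 ± 0.108 in WT (SD, n = 3 each).

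**Figure D3:**
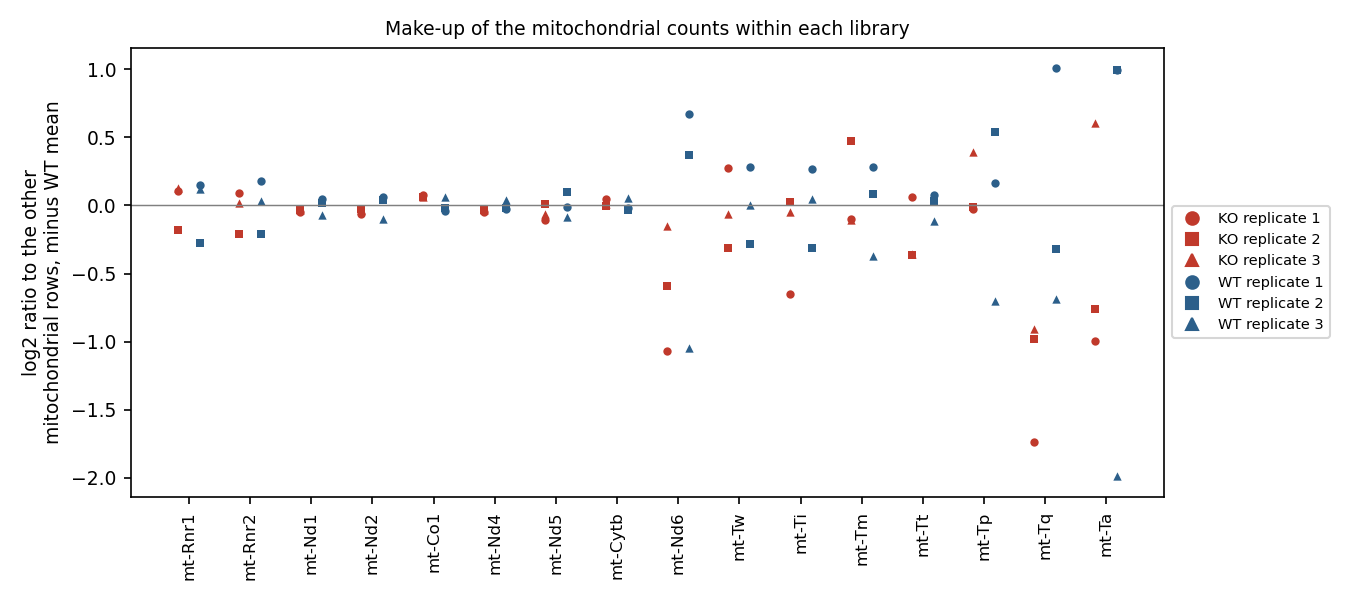
Log2 ratio of each tested mitochondrial row to the sum of the other mitochondrial rows in the same library, minus the WT mean, with KO in red and left of WT in blue. The 8 abundant rows lie close to 0 in every library, and mt-Nd6, mt-Tq and mt-Ta spread the most. Rows further right rest on few counts.

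mt-Nd6, a membrane subunit of complex I, is the only mitochondrial protein gene annotated on the minus strand, and its mRNA in human cells is known to lack a poly(A) tail. It had 33.1, 23.5 and 41.7 CPM in KO replicates 1, 2 and 3, against 43.5, 42.0 and 9.47 CPM in WT replicates 1, 2 and 3. The lowest library was WT replicate 3, and the groups overlapped. Its log2 fold change was 0.05 ± 0.50 (adjusted p = 0.972 in edgeR), and it turned negative without KO replicate 3 (-0.16) or without WT replicate 3 (-0.38). For every 1000 counts of mt-Nd5 there were 1.65, 2.14 and 3.03 counts of mt-Nd6 in KO, against 5.19, 3.96 and 1.66 in WT, also with overlap.

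mt-Nd5 and mt-Nd6 end on opposite strands and overlap in their last bases, and the sources used here do not say whether reads were counted by strand, so reads there cannot be assigned with certainty. The last 24 bases of 4 mRNAs are shown 5′ to 3′ with the stop codon, or the part of it that is encoded, in capitals. mt-Nd5 ends at chrM:13542-13565 (plus strand) and mt-Nd6 at chrM:13552-13575 (minus strand), which shows the overlap. mt-Co1 (chrM:6849-6872, plus strand) has a full stop codon, and mt-Cytb (chrM:15265-15288, plus strand) ends in a single encoded base of it. mt-Nd4 and mt-Co3 end like mt-Cytb.
mt-Nd5: ttatactcaattaatctcgagTAA
mt-Nd6: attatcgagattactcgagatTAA
mt-Co1: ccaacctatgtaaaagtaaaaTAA
mt-Cytb: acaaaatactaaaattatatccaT

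The tRNA rows were sparse, with 2474 counts in 17 rows outside the copied stretch. Summed over all tRNA rows there were 615, 336 and 507 counts in KO replicates 1, 2 and 3, against 421, 382 and 213 counts in WT replicates 1, 2 and 3. tRNAs on the plus strand held 558, 300 and 427 of these counts in KO, against 336, 303 and 194 in WT, and those on the minus strand held 57, 36 and 80 in KO, against 85, 79 and 19 in WT. Both sums overlapped between genotypes.

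The tRNA row with most counts was mt-Tw, the tRNA for tryptophan, with 304, 111 and 191 counts in KO replicates 1, 2 and 3, against 149, 125 and 88 counts in WT replicates 1, 2 and 3. mt-Ti, for isoleucine, had 115, 101 and 139 counts in KO, against 106, 88 and 65 counts in WT. In the annotation mt-Tw overlaps the end of mt-Nd2 and mt-Ti overlaps the end of mt-Nd1. mt-Tm, for methionine, lies between mt-Tq and mt-Nd2 and had 77, 63 and 61 counts in KO, against 49, 53 and 22 counts in WT. In CPM, mt-Ti and mt-Tm did not overlap between genotypes and mt-Tw did. The log2 fold changes were 0.98 ± 0.39 for mt-Tw, 0.66 ± 0.21 for mt-Ti and 0.92 ± 0.34 for mt-Tm (adjusted p = 0.319, 0.277 and 0.293 in edgeR). Without KO replicate 1 the value was 0.46 for mt-Tw.

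The other tested tRNA rows had fewer counts. mt-Tt, for threonine, had 59, 24 and 35 counts in KO replicates 1, 2 and 3, against 29, 35 and 18 counts in WT replicates 1, 2 and 3 (log2 0.76 ± 0.42, adjusted p = 0.422 in edgeR). mt-Tp, for proline and on the minus strand, had 29, 16 and 31 counts in KO, against 16, 26 and 6 counts in WT (log2 0.88 ± 0.50, adjusted p = 0.429 in edgeR). Neither row separated the genotypes. Without KO replicate 1 the log2 fold change of mt-Tt was 0.26, and without WT replicate 3 that of mt-Tp was 0.50. mt-Tq, for glutamine and on the minus strand, had 14, 13 and 20 counts in KO, against 47, 23 and 10 counts in WT (log2 -0.56 ± 0.53, adjusted p = 0.639 in edgeR), and without WT replicate 1 the value was 0.15. mt-Ta, for alanine and on the minus strand, had 8, 5 and 20 counts in KO, against 16, 20 and 1 counts in WT (log2 0.03 ± 0.79, adjusted p = 0.990 in edgeR). The sign of these 2 rows changed when a library was left out. The remaining tRNA rows outside the stretch had total counts of 17 (mt-Ty), 13 (mt-Te), 10 (mt-Tl1), 4 (mt-Tc), 1 (mt-Tn) and 1 (mt-Tl2), and mt-Tf, mt-Tv, mt-Th and mt-Ts2 had 0.

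The clone-named rows behaved otherwise. In the table they stand between Tubb4b-ps2 and Lmbrd1, and the 7 annotated copies were taken as every annotated gene between these genes. No name in the sources used here pairs a row with a copy, so no row is given a sequence. The rows stand in consecutive places from RP23-8J15.7 to RP23-8J15.1, and the copies run from Gm28439 to Gm29216 along chromosome 1. If the rows follow the chromosome, RP23-8J15.5 would be Gm28438, the copy of mt-Nd3, and RP23-8J15.4 would be Gm28437, the copy of mt-Co3. This pairing was not tested. Summed counts of the clone-named rows were 827, 463 and 729 in KO replicates 1, 2 and 3, against 1162, 133 and 89 in WT replicates 1, 2 and 3. For every 1000000 mitochondrial counts this was 218, 222 and 242 in KO, against 627, 57.8 and 66.9 in WT. The KO libraries were alike, and the WT libraries lay on both sides of them, with WT replicate 1 highest. The direction depended on the scale: the mean was 227 ± 12.6 in KO and 250.4 ± 326 in WT (SD, n = 3 each), while the mean of the log2 ratio was higher in KO by 0.75 (exact two-sided permutation p = 0.4). That log2 difference was 1.86 without WT replicate 1, 0.15 without WT replicate 2 and 0.25 without WT replicate 3. Altogether the 7 rows held 3403 counts, or 0.0237% of the mitochondrial counts, against the 8210210 counts of the 5 protein rows outside the copied stretch.

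RP23-8J15.1 held most of these counts, with 247, 412 and 181 in KO replicates 1, 2 and 3, against 1081, 99 and 69 in WT replicates 1, 2 and 3. WT replicate 1 alone was above the KO libraries, and the other WT libraries were below all of them. Its log2 fold change was -0.36 ± 0.95 (adjusted p = 0.877 in edgeR), and 1.98 without WT replicate 1. Leaving this row out of the sum raised the difference of KO minus WT in the log2 ratio to the mitochondrial counts to 2.03 (exact permutation p = 0.2).

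RP23-8J15.4 and RP23-8J15.5 were high in KO libraries. RP23-8J15.4 had 460, 4 and 415 counts in KO replicates 1, 2 and 3, against 7, 6 and 1 counts in WT replicates 1, 2 and 3. KO replicate 2 was thus within the WT range, and the row was not kept by the filter in the fit to all 6 libraries. Without KO replicate 2 its log2 fold change was 6.73 ± 0.37 (adjusted p = 0.00467 in edgeR), but the row then passed the filter only through the 2 high KO libraries, once the KO library within the WT range was left out, so this p supports nothing. With no filter on low counts it did not pass the threshold (log2 6.14 ± 1.07, adjusted p = 0.0745 in edgeR). Over the alternatives that tested it, its adjusted p ran up to 0.575 in edgeR. RP23-8J15.5 had 89, 38 and 115 counts in KO, against 1, 5 and 2 counts in WT, without overlap. Its log2 fold change was 5.06 ± 0.60 (adjusted p = 0.201 in edgeR, higher in 3 of 3 KO libraries), and it passed the filter only through its counts in the KO libraries. It was called without KO replicate 2, its lowest KO library (log2 5.39, adjusted p = 0.0246 in edgeR). The filter then again kept it only through its KO counts, so this p supports nothing. With no filter on low counts it was called too (log2 5.04, adjusted p = 0.000864 in edgeR). Over all alternatives its adjusted p ran up to 0.793 in edgeR.

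The other clone-named rows had at most 13 counts in a library, save RP23-8J15.7 in WT replicate 1. RP23-8J15.7 had 2, 2 and 3 counts in KO replicates 1, 2 and 3, against 61, 4 and 5 counts in WT replicates 1, 2 and 3, where WT replicate 1 again stood apart. RP23-8J15.2 had 3, 0 and 10 counts in KO, against 5, 5 and 4 in WT. RP23-8J15.3 had 13, 4 and 4 counts in KO, against 2, 6 and 2 in WT, and RP23-8J15.6 had 13, 3 and 1 counts in KO, against 5, 8 and 6 in WT. Of these 4 rows RP23-8J15.7 alone did not overlap between genotypes, by 1 count, and none was kept by the filter. The share of all unfiltered rows without overlap was not computed, so nothing is concluded from this row. Reads of near-identical copies can be split by the aligner in ways that the deposited counts do not show, so all 7 rows are uncertain. The part of mapping in these values was not tested.

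**Figure D4:**
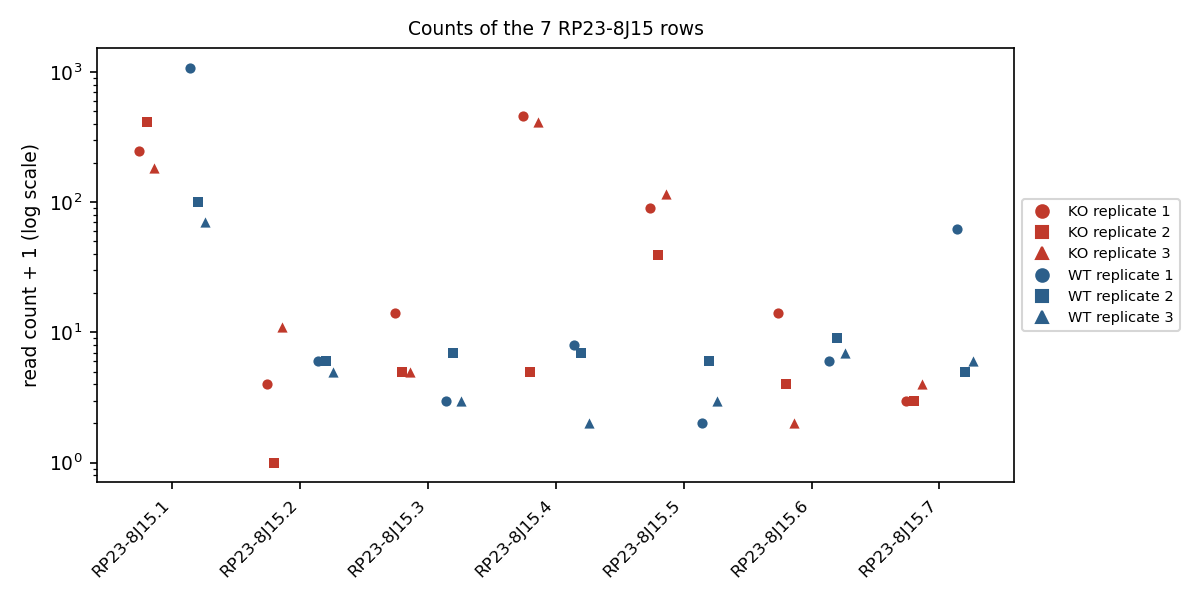
Read count plus 1 (log scale) of the 7 clone-named rows in each library, KO in red and left of WT in blue. RP23-8J15.4 is above 400 counts in 2 KO libraries and at 4 in KO replicate 2, RP23-8J15.5 is at 38 or more in each KO library and at 5 or fewer in each WT library, and WT replicate 1 is highest for RP23-8J15.1 and RP23-8J15.7.

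Nuclear genes that serve the mitochondrion were set out in 8 lists with medians close to 0. No member of any list was called by edgeR or by DESeq2. Over all tested rows, the median log2 fold change was 0.01 and 52.5% were above 0. The list for transcription and replication of mitochondrial DNA had 14 of 20 tested members above 0 and a median of 0.06. Polrmt, the mitochondrial RNA polymerase, measured 19.8 ± 1.91 CPM in KO and 18.3 ± 0.668 CPM in WT (log2 0.11 ± 0.09, adjusted p = 0.587 in edgeR). Tfam, which packages mitochondrial DNA and starts its transcription, measured 23.3 ± 0.744 CPM in KO and 24.9 ± 1.21 CPM in WT (log2 -0.10 ± 0.07, adjusted p = 0.545 in edgeR). The smallest p in this list were those of Polg, the mitochondrial DNA polymerase (log2 0.12), Tfb1m, which methylates the small rRNA (log2 -0.32), and Ssbp1, which binds single-stranded mitochondrial DNA (log2 0.17), with adjusted p between 0.374 and 0.412 in edgeR.

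Genes that process, modify and degrade mitochondrial RNA had 26 of 34 tested members above 0 and a median of 0.08. Lrpprc and Slirp, partners that stabilize mitochondrial mRNAs, gave log2 fold changes of 0.01 and 0.04 (adjusted p = 0.963 and 0.802 in edgeR). The smallest p belonged to Nsun4, a methyltransferase of the small rRNA, at 7.09 ± 0.319 CPM in KO and 5.36 ± 0.1002 CPM in WT (log2 0.40 ± 0.12, adjusted p = 0.273 in edgeR). Trmu, which thiolates mitochondrial tRNAs, followed at 10.8 ± 0.563 CPM in KO and 8.19 ± 1.06 CPM in WT (log2 0.40 ± 0.13, adjusted p = 0.277 in edgeR), and then Fastk, of which a mitochondrial form maintains mt-Nd6 mRNA (log2 0.15, adjusted p = 0.326 in edgeR).

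Translation factors and mitochondrial tRNA synthetases had 19 of 30 tested members above 0 and a median of 0.04. The smallest p were those of Tars2 and Hars2, synthetases for threonine and histidine (log2 0.34 and 0.19), and of Gfm2, a factor that recycles mitochondrial ribosomes (log2 0.25). Mitochondrial ribosomal proteins had 64 of 77 tested members above 0 and a median of 0.09, led by Mrpl24, Mrpl36 and Mrps15 (log2 0.21, 0.26 and 0.26). Adjusted p of these 6 genes ran from 0.264 to 0.346 in edgeR.

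Nuclear subunits of the respiratory chain had small values too. In complex I 28 of 36 tested members were above 0 with a median of 0.06, and the smallest p were those of Ndufab1, the mitochondrial acyl carrier protein (log2 0.39), Ndufb7 (log2 0.15) and Ndufa2 (log2 0.15). In complexes III, IV and V 25 of 35 tested members were above 0 with a median of 0.06. Here the smallest p were those of Uqcrfs1, the Rieske iron-sulfur protein (log2 0.40), Atp5e, a subunit of ATP synthase (log2 0.20), and Cyc1, cytochrome c1 (log2 0.14). Adjusted p of these 6 genes ran from 0.264 to 0.323 in edgeR.

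Mitochondrial over nuclear subunits of the same complex ranked the libraries much as the mitochondrial share did. Summed CPM of mt-Nd1, mt-Nd2, mt-Nd4 and mt-Nd5 was 40.8, 19.9 and 26.9 times that of 36 nuclear complex I genes in KO replicates 1, 2 and 3, against 16.6, 20.3 and 11.6 times in WT replicates 1, 2 and 3. For complex III, mt-Cytb was 55.5, 26.4 and 35.7 times the sum of 9 nuclear genes in KO, against 21.1, 25.4 and 16.2 times in WT. For complex IV, mt-Co1 was 57.5, 27.9 and 35.7 times the sum of 10 nuclear genes in KO, against 20.9, 25.3 and 16.7 times in WT. KO and WT did not overlap for complexes III and IV and overlapped for complex I, where KO replicate 2 lay below WT replicate 2. These ratios are of counts scaled to library size and not of gene length.

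Regulators of mitochondrial biogenesis had 3 of 11 tested members above 0 and a median of -0.10. The smallest p were those of the transcription factors Yy1 (log2 -0.13), Gabpa (log2 -0.15) and Ppara (log2 -0.49), with adjusted p between 0.320 and 0.368 in edgeR. Genes of mitochondrial protein quality control and stress had 13 of 22 tested members above 0 and a median of 0.04. Mthfd2, a folate enzyme of the mitochondrion, had 7.11, 4.82 and 6.48 CPM in KO replicates 1, 2 and 3, against 12.6, 9.33 and 18.9 CPM in WT replicates 1, 2 and 3 (log2 -1.15 ± 0.27, adjusted p = 0.261 in edgeR), without overlap. Ddit3, a transcription factor of the integrated stress response, measured 34.6 ± 4.88 CPM in KO and 25.8 ± 4.26 CPM in WT (log2 0.43 ± 0.15), and Aldh18a1, an enzyme of proline synthesis, 33.7 ± 5.11 CPM in KO and 41.3 ± 4.80 CPM in WT (log2 -0.29 ± 0.13), with adjusted p of 0.279 and 0.345 in edgeR.

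**Figure D5:**
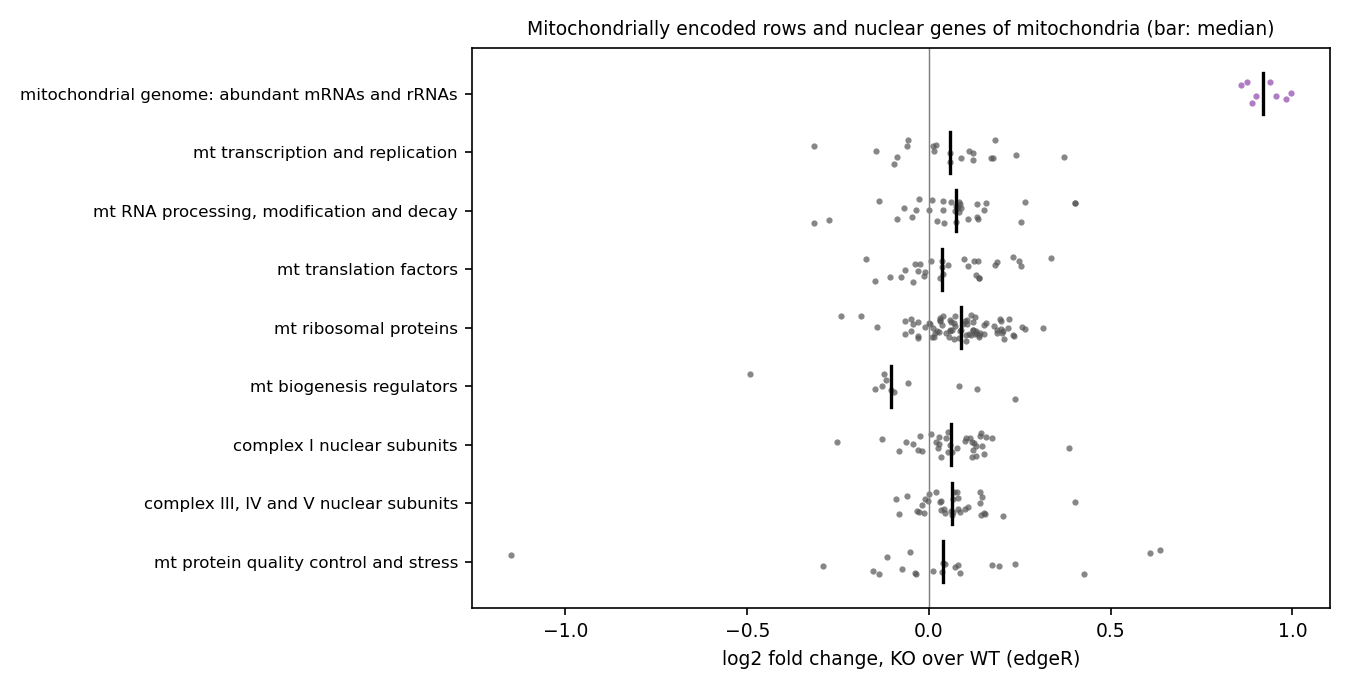
Log2 fold change of KO over WT in edgeR for the 8 abundant mitochondrial rows (purple) and for the tested members of 8 lists of nuclear genes (grey), with the median of each as a bar. The mitochondrial rows lie between 0.86 and 0.995, and the list medians lie between -0.10 and 0.09.

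Markers of tissues rich in mitochondria were present at low levels and varied between libraries. The summed level of 16 heart muscle markers was 203, 145 and 143 CPM in KO replicates 1, 2 and 3, against 146, 119 and 135 CPM in WT replicates 1, 2 and 3. KO replicate 1, with the highest mitochondrial share, was also the highest here. Ryr2 was the largest part of the sum, at 81.4, 78.1 and 69.4 CPM in KO, against 87.4, 54.4 and 93.0 CPM in WT. It was highest in WT replicate 3, and Pln was highest in KO replicate 3 at 29.8 CPM. Myoz2 was lower in KO replicate 1 (13.1 CPM) than in KO replicates 2 and 3. Tnnt2, Tnni3, Myl4, Actc1, Myl7 and Ttn were highest in KO replicate 1. Casq2 and Myh7 were highest in KO replicate 3, at 3.07 and 0.735 CPM, against 2.83 and 0.721 CPM in KO replicate 1. Of 12 tested heart markers 11 had a log2 fold change above 0, none was called, and Nppb was at 0 in all libraries. Nppa and Myl3 were at 0 in every library but KO replicate 1, and Myl2 was at 0 in every library but WT replicate 2. Myh6, the main myosin heavy chain of the adult mouse heart, measured 13.3, 3.05 and 0.432 CPM in KO, against 0.373, 1.63 and 0.414 CPM in WT. The 8 brown fat markers summed to 132, 57.9 and 122.9 CPM in KO, against 87.2, 63.4 and 94.3 CPM in WT. Most of the sum in KO replicate 1 was Dio2, at 101, 27.4 and 31.8 CPM in KO, against 34.4, 19.1 and 55.2 CPM in WT. Cidea was lowest in that library, at 2.94, 12.8 and 19.4 CPM in KO, against 13.9, 11.2 and 14.4 CPM in WT. Ucp1, the uncoupling protein that defines brown fat, measured 1.55, 0.286 and 15.2 CPM in KO, against 4.56, 0.913 and 1.49 CPM in WT. Of 7 tested brown fat markers 5 were above 0 and none was called. The 10 smooth muscle markers summed to 41815, 55704 and 45305 CPM in KO, against 50557, 53937 and 53105 CPM in WT, lowest in KO replicate 1, and 1 of 10 was above 0 in log2 fold change. The other 7 marker lists had no called member, and their medians lay between -1.47 (erythroid cells) and 0.37 (endothelium). The part of other cell types in the mitochondrial share was not tested.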

How the data were processed

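The authors deposited 1 table of raw counts with 53735 genes in rows and 6 libraries in columns, and each column's name matched the labels of a library. The submitters' processing notes list Trimmomatic 0.36, STAR 2.6.0c, featureCounts (Subread 1.6.1) and GRCm38. The sources used here do not state the strand setting, the handling of reads that fit several places, the annotation release or the read length. These can move counts between the mitochondrial rows and their nuclear copies.

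All 37 mt- symbols and none of the 7 clone names matched GENCODE M21, from which coordinates and sequences were read. Copies were aligned with Biopython 1.88 (match 1, mismatch -2, gap opening -5, gap extension -1), and exact windows of 50, 100 and 150 bases were searched in 141767 transcripts.

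Counts were tested with edgeR 4.0.16 in R 4.3.3 (quasi-likelihood test, TMM, genotype as the only term, filterByExpr with a minimum count of 10 and a minimum total of 15), fitted on the whole table. Two-sided p-values were adjusted over 14145 rows (Benjamini-Hochberg). Library values went through an exact permutation test (two-sided) in SciPy 1.17.1, and ratios used a pseudocount of 0.5. The edgeR test was checked on simulated counts, and the permutation test on small sets of made-up values. Total counts were 20048216 to 25521123 per library, and limits from counts of 0 cover only counting error. No library repeated another, with a chi-square of 15.03 to 69.3 per gene between replicates.

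Alternatives were DESeq2 1.42.0 (size factors and test), limma 3.58.1 voom, other filters, scaling without the members, the replicate number as a block, other denominators and pseudocounts, and leaving out each library. Leaving out KO replicate 1 and WT replicate 3 together, and the summed ratio without RP23-8J15.1, were added after the data were seen. Members and gene lists were chosen with earlier results of these data known. The text names every mt- row with at least 10 counts in a library and every clone-named row, and gives the other mt- rows by total. Of each nuclear list it names the 3 tested genes of smallest p, besides Tfam, Polrmt, Lrpprc and Slirp.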

Additional observations from a re-analysis of the deposited data

How the results depend on the processing

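The edgeR count of called rows was 1. It was 209 with the DESeq2 test, 9 with no filter, 0 with the replicate block, 0 to 3 when each library was left out in turn (3 without KO replicate 2, 0 without WT replicate 1) and 0 without KO replicate 1 and WT replicate 3 together. Same-numbered libraries deviated from their group means with correlations of 0.11, 0.13 and -0.06, and differently numbered ones with -0.28 to 0.18. With 3 libraries in a group these values cannot settle whether the numbers pair the libraries. The replicate block changed no member's call. Of 247 alternative fold changes of the 18 members tested with all libraries and the filter, 235 kept their sign and side of the threshold, 10 changed sign and 2, both of RP23-8J15.5, passed it. RP23-8J15.4, not among these, passed it without KO replicate 2. RP23-8J15.1 was 0.64 with limma-voom, 0.56 with the replicate block and -0.87 to 1.98 when each library was left out. With single libraries left out, log2 fold changes ran from -0.95 to 0.15 for mt-Tq, from -0.63 to 0.53 for mt-Ta and from -0.38 to 0.35 for mt-Nd6. Without KO replicate 1 and WT replicate 3 together, mt-Ta was -0.38 and mt-Nd6 -0.39. Of 153 alternative ratios within the mitochondrial rows, 137 kept their sign, and the differences that changed it were small or rested on few counts. Against mt-Co1 alone, the ratio differences were -0.0299 for mt-Rnr1 and -0.0322 for mt-Cytb. With single libraries left out, the ratio differences ran from -0.12 to 0.12 for mt-Rnr1, -0.14 to 0.0568 for mt-Rnr2, -0.10 to 0.23 for mt-Tm, -0.19 to 0.11 for mt-Tw, -1.38 to 0.11 for mt-Ta, -0.66 to 2.15 for mt-Co3 and -0.23 to 0.39 for mt-Tp. The difference in the mitochondrial share, 6.46 percentage points, ran from 3.99 without KO replicate 1 to 8.44 without KO replicate 2. The difference of KO minus WT in the log2 ratio of clone-named to mitochondrial counts ran from 0.15 without WT replicate 2 to 1.86 without WT replicate 1. It was 1.73 against all other rows. The causes were not tested.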

Other observations

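Other annotated genes also share 50-base windows with mitochondrial genes, and none of them is a row of the table by these names. Gm13340, Gm13341 and Gm13339, unprocessed pseudogenes next to each other on chromosome 2, share 411, 224 and 81 windows, chiefly with mt-Co1, mt-Co2 and mt-Nd2. Gm4076 on chromosome 13 and Gm11407 on chromosome 4 share 73 and 64 windows with mt-Nd5, and Gm20594 on chromosome 6, annotated as protein coding, shares 16 with mt-Rnr2. mt-Nd2 and mt-Nd5 were abundant in every library with 8.19% and 7.61% of their 50-base windows shared in this way.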
